A study of Mus musculus with 5 samples.

Results

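The genes described here centre on the thiol-based antioxidant systems of the cell, with some other antioxidant genes and some matched by name alone. They were chosen by gene name, as every row of the count table named for a glutathione transferase, glutathione peroxidase, peroxiredoxin, thioredoxin, glutaredoxin or metallothionein or for a subunit of glutamate-cysteine ligase, plus Gss, Gsr, Sod1, Sod2, Cat, Hmox1, Nqo1, Nfe2l2 and Keap1. This gave 76 of the 24417 genes with a symbol. Bulk RNA was sequenced from sorted cells of the colon lamina propria of mice, the tissue that underlies the gut epithelium. Both groups came from 1 strain, named for a Foxp3DTR-GFP allele and for a second allele, loxp-Thy1.1-STOP-loxp-GFP. Foxp3 encodes the lineage factor of regulatory T (Treg) cells. The Treg group had 2 libraries of Foxp3-DTR-GFP+ cells and the reporter-null group 3 libraries of Foxp3 Thy1.1+ cells. No source used here gives ages or says whether libraries came from separate or pooled animals, so p-values reflect only how far these libraries vary, and that variation may be technical. Reporter-null replicate 1 carries the numbers 1 and 4 in its label.

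Glutathione is a small thiol peptide built from glutamate, cysteine and glycine. Peroxidases use it to reduce peroxides, transferases attach it to reactive lipids and foreign compounds, and glutaredoxins use it to release proteins from mixed disulfides. Thioredoxin, recharged by thioredoxin reductase, does the same work in parallel and feeds the peroxiredoxins. The transcription factor NRF2, held down by KEAP1, drives many of these genes, and activated T cells need glutathione to sustain growth.

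Levels are CPM, read counts relative to library size after scaling for composition. A gene is called, and said to rise or fall, where its edgeR adjusted p is under 0.05. Log2 fold changes above 0 mean more RNA in reporter-null cells, and SE is their standard error. Libraries held 17670420 to 22395169 counts. Foxp3 ran from 764 to 770.0 CPM over Treg and from 75.7 to 81.3 CPM over reporter-null libraries, so the targeted gene followed the labels. All 12 listed CD4 T cell markers, among them Cd3e, Cd4 and Lck, had counts, and their sum ran from 8520 to 8669 CPM in Treg and from 8808 to 9337 CPM in reporter-null libraries.

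A pair of libraries stood apart by RNA of other cells. Summed over 16 colon epithelial markers, Treg replicate 1 had 386 CPM and Treg replicate 2 had 58.1 CPM, of which 34.3 CPM was Epcam. Reporter-null replicate 2 had 1753 CPM, while replicates 1 and 3 had 43.0 and 47.4 CPM. Epcam was at 45.0 CPM in Treg replicate 1 and at 1.08 and 0.890 CPM in reporter-null replicates 1 and 3. All 16 were highest in reporter-null replicate 2, led by Krt8, Krt19 and Car1, while Muc2, the main mucin of goblet cells, had no count in reporter-null replicates 1 and 3. A sum of 9 B and plasma cell markers was also higher in Treg replicate 1 (1448 CPM) and reporter-null replicate 2 (913 CPM) than in the other libraries (397 to 444 CPM). So was a sum of 10 fibroblast and smooth muscle markers (50.8 and 119 CPM, against 13.1 to 18.4 CPM in the other libraries). Members are therefore given with and without these libraries where that matters. In such bulk libraries, fewer cells of a type and less RNA per cell cannot be told apart.

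Of the 76 genes, 72 had a count and 64 passed the filter on low counts. Of these, 2 rose and 4 fell in reporter-null cells. Gclc and Gpx1 rose, while Mgst2, Glrx, Gpx4 and Prdx4 fell. The shares were 3.12% higher and 6.25% lower, against 4.07% and 4.72% of all 14164 genes tested. Their median log2 fold change was -0.08, beside 0.02 over all genes. The 2 libraries of the Treg group lay wholly above or below the reporter-null libraries in 23 of the 64 members (35.9%), against 40.8% of all tested genes. Of the 64, 52 differed by less than 2-fold, and 34 had an SE of at most 0.2.

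**Figure D1:**
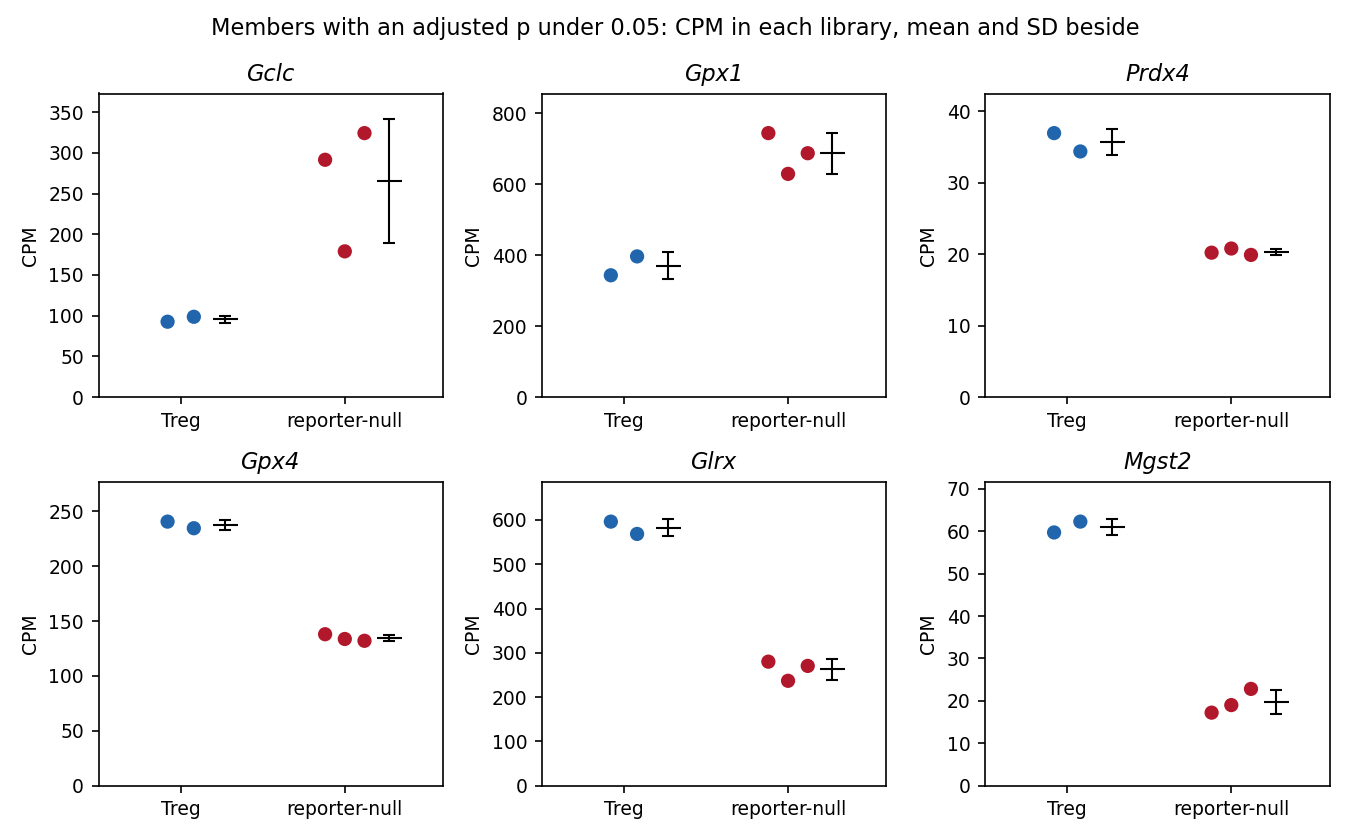
CPM (y axis, from 0) of the 6 called genes in each library, with blue points for the 2 Treg and red points for the 3 reporter-null libraries and the mean with SD (black) beside each group. In all 6 panels the groups are apart, and Gclc has the widest spread, from 179 to 324 CPM among reporter-null libraries.

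Of 4 genes for glutathione synthesis and recycling, 1 rose. Gclc encodes the catalytic subunit of glutamate-cysteine ligase, the rate-limiting step. Its level was 92.6 and 98.7 CPM in Treg and 291, 179 and 324 CPM in reporter-null libraries, in the order of their replicate numbers, as throughout. Every reporter-null library was above both Treg libraries, and replicate 2 was the lowest of them. The log2 fold change was 1.47 (SE 0.265, adjusted p = 0.0245), from 95.6 ± 4.28 (SD, n = 2) to 265 ± 76.1 CPM (SD, n = 3). Without reporter-null replicate 2 it was 1.68 (adjusted p = 1.5e-05). The call was lost when either Treg library was left out (0.2 without replicate 1, 0.158 without replicate 2), and also without reporter-null replicate 1 (0.0925) or 3 (0.0515).

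The partner subunit was not called. Gclm, which encodes the modifier subunit of the same ligase, was at 336 and 298 CPM in Treg and 323, 299 and 355 CPM in reporter-null libraries (0.04, SE 0.125, adjusted p = 0.905). The ranges of the groups overlapped. Gss, the synthetase of the second step, was at 24.1 and 17.7 CPM in Treg and 27.6, 50.9 and 22.5 CPM in reporter-null libraries (0.69, SE 0.388, adjusted p = 0.38). Its highest library was reporter-null replicate 2, without which the difference was 0.25. Gsr, the reductase that recycles oxidised glutathione, was at 110 and 102 CPM in Treg and 104, 154 and 99.6 CPM in reporter-null libraries (0.16, SE 0.204, adjusted p = 0.717). In Gsr, replicate 2 was the reporter-null library above both Treg libraries, while in Gss replicate 1 was above them as well.

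Glutathione peroxidases moved in opposite directions. Gpx1, the abundant cytosolic selenoenzyme that reduces hydrogen peroxide, was at 343 and 396 CPM in Treg and 744, 629 and 687 CPM in reporter-null libraries. Every reporter-null library was well above both Treg libraries. The log2 fold change was 0.89 (SE 0.135, adjusted p = 0.00982), and the call was lost without Treg replicate 1 (0.126), Treg replicate 2 (0.0666) or reporter-null replicate 1 (0.0554). Gpx4, the selenoenzyme that reduces lipid peroxides within membranes and so protects from ferroptosis, was at 241 and 235 CPM in Treg and 138, 134 and 132 CPM in reporter-null libraries. The libraries within each group were close together. The log2 fold change was -0.82 (SE 0.1, adjusted p = 0.00447), and the call was lost without Treg replicate 1 (0.06) or Treg replicate 2 (0.051), with the value between -0.84 and -0.80.

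The other peroxidases were low or uneven. Gpx2, the peroxidase of gut epithelium, was at 16.8 and 0.601 CPM in Treg and 0.325, 67.7 and 0.178 CPM in reporter-null libraries. It was high in the libraries with the most epithelial marker RNA, and its difference of 1.39 (SE 3.16) became -5.12 (adjusted p = 0.347) without reporter-null replicate 2. Gpx3, the secreted plasma form, differed by -0.19 (SE 0.731) and Gpx7, an enzyme of the endoplasmic reticulum, by 0.24 (SE 0.349). Gpx5, Gpx6 and Gpx8 had 7, 2 and 3 counts in all and were not tested.

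Of 6 tested peroxiredoxins, 1 fell. Prdx4, the member of the endoplasmic reticulum, was at 36.9 and 34.4 CPM in Treg and 20.2, 20.8 and 19.9 CPM in reporter-null libraries. The reporter-null libraries were nearly equal and all below Treg. The log2 fold change was -0.81 (SE 0.134, adjusted p = 0.014), and the call was lost without Treg replicate 1 (0.118), Treg replicate 2 (0.0718) or reporter-null replicate 1 (0.0858). Prdx6, which also has phospholipase activity, stood at 273 and 252 CPM in Treg and 358, 451 and 347 CPM in reporter-null libraries. The groups did not overlap, but the difference of 0.55 (SE 0.149) was not called by edgeR (adjusted p = 0.0734). DESeq2 called Prdx6 (adjusted p = 0.00516), within a range of 0.00516 to 0.316 over 14 alternatives. Prdx1, a major cytosolic form, was at 329 and 300.4 CPM in Treg and 262, 253 and 308 CPM in reporter-null libraries (-0.20, SE 0.129, adjusted p = 0.435). Prdx2, cytosolic, and Prdx3, mitochondrial, differed by 0.09 and -0.15, and Prdx5 by -0.28 (SE 0.117, adjusted p = 0.212). Prdx6b, a near copy of Prdx6, had 25 counts in all.

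None of the 6 tested thioredoxin genes was called by edgeR, with 1 at an unadjusted p under 0.05 and 1 called by DESeq2, in both cases Txnip. Txn1, the cytosolic thioredoxin, was at 83.7 and 84.5 CPM in Treg and 93.6, 80.5 and 102 CPM in reporter-null libraries (0.13, SE 0.132, adjusted p = 0.646). Txn2, its mitochondrial counterpart, differed by -0.12 (SE 0.1). Txnrd1, the cytosolic reductase, was at 95.8 and 105 CPM in Treg and 105, 126 and 100.4 CPM in reporter-null libraries (0.14, SE 0.136, adjusted p = 0.636), and the mitochondrial Txnrd2 differed by 0.10 (SE 0.137). Txnip, which binds and inhibits thioredoxin and limits glucose uptake, was at 712 and 822 CPM in Treg and 610, 605 and 632 CPM in reporter-null libraries. All reporter-null libraries were lower, by -0.32 (SE 0.119, adjusted p = 0.171). DESeq2 called Txnip (adjusted p = 0.0191, within a range of 0.0191 to 0.57 over 14 alternatives). Txnrd3, a reductase best known from testis, was at 4.56 and 2.31 CPM in Treg and 0.487, 2.69 and 0.534 CPM in reporter-null libraries (-1.47, SE 0.848, adjusted p = 0.379).

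Proteins with a thioredoxin fold in other settings, such as protein folding and the spliceosome, were called in 0 of 10 tested cases by edgeR and 0 by DESeq2, with 1 at an unadjusted p under 0.05. Their log2 fold changes ran from -0.38 for Txndc12 to 0.55 for Txndc16. Txnl4a, a spliceosome component, differed by -0.21 (SE 0.12). Txndc5, a disulfide isomerase abundant in antibody-secreting cells, was at 138 and 82.1 CPM in Treg and 92.2, 170 and 73.3 CPM in reporter-null libraries. Its high libraries were Treg replicate 1 and reporter-null replicate 2, those with the highest sums of B and plasma cell markers, and what part these had was not tested. Txndc2 and Txndc8, both known from testis, had no count.

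Among 4 tested glutaredoxins, 1 fell, the cytosolic enzyme. Glrx, which removes glutathione from modified proteins, was at 596 and 569 CPM in Treg and 280, 237 and 270.4 CPM in reporter-null libraries. All 3 reporter-null libraries stood at under 300 CPM, far from both Treg libraries. The change was -1.15 on the log2 scale (SE 0.119, adjusted p = 0.00258), a 2.22-fold higher level in Treg cells. The call held without any 1 of the 5 libraries. Glrx5, which serves mitochondrial iron-sulfur cluster assembly, differed by -0.43 (SE 0.151), not called (adjusted p = 0.151). Glrx2 and Glrx3 differed by 0.08 and -0.03.

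Mgst2 had the largest called decrease. This membrane-bound transferase can join glutathione to leukotriene A4, the step that makes leukotriene C4. It was at 59.7 and 62.3 CPM in Treg and 17.2, 19.0 and 22.8 CPM in reporter-null libraries. The groups were far apart, and the level in Treg cells was 3.10-fold higher. The log2 fold change was -1.63 (SE 0.154, adjusted p = 0.00173). The call held without any 1 of the 5 libraries. With Treg replicate 2 and reporter-null replicates 1 and 3 alone, the libraries with the lowest epithelial marker sums, the log2 fold change was again -1.63.

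The stretches just upstream of 3 of the 6 called genes are shown, so that the motif search can be read in the sequence. Each is the 250 bases before the RefSeq start on GRCm38.p6, on the plus strand. Glrx lies at chr13:75839635-75839884, Mgst2 at chr3:51660929-51661178 and Gpx1 at chr9:108338830-108339079. Capitals mark matches, on either strand, to the core of the metal response element (TGCACNC or TGCGCNC) or of the antioxidant response element that NRF2 binds (TGACNNNGC).
Glrx: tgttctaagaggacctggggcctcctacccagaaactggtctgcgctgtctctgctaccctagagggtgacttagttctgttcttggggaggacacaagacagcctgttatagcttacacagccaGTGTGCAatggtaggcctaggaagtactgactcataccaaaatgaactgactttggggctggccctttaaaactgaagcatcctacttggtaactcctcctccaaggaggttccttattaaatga
Mgst2: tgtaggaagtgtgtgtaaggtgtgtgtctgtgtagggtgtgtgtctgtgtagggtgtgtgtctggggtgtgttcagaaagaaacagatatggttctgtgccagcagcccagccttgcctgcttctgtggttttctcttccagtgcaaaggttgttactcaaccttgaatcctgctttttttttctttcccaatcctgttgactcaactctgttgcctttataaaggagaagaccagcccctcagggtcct
Gpx1: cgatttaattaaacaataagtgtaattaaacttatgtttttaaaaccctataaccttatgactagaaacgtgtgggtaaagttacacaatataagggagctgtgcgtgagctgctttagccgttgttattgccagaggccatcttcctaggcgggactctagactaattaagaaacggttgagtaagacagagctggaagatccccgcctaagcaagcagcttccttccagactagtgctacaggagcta
Glrx held 1 match to the metal element core, and neither core was found in the windows of Mgst2 and Gpx1. Of the called genes not shown, Prdx4 held 1 match to the metal element core, and no match to either core was recorded for Gclc or Gpx4.

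**Figure D2:**
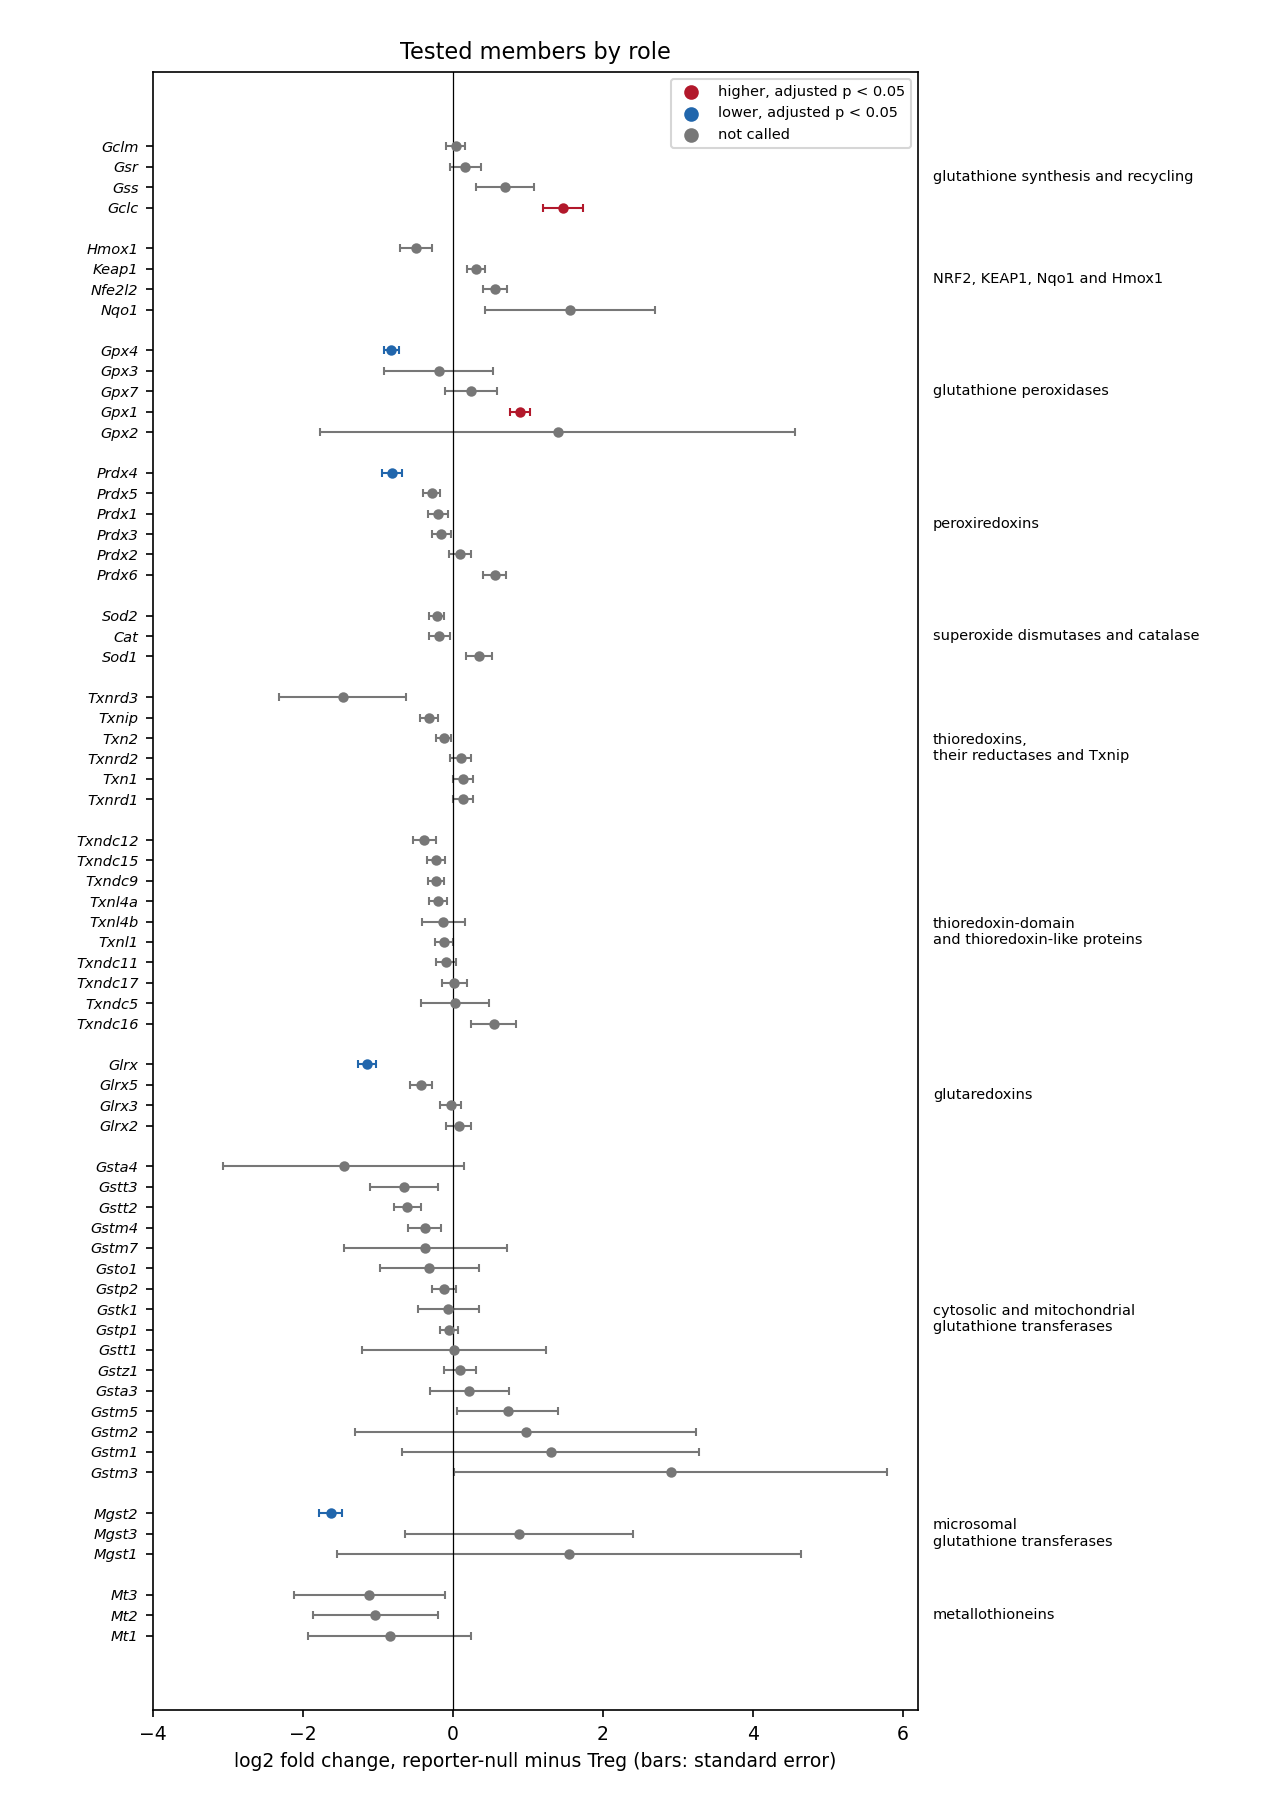
Log2 fold change, reporter-null minus Treg (x axis, bars for the SE), of the 64 tested genes, grouped by role, with red for higher, blue for lower and grey for not called. Most points lie near 0 with short bars, and wide bars belong to genes with uneven libraries, such as Gpx2, Mgst1 and Gstm3.

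Superoxide dismutases and catalase, which do not use thiols, were called in 0 of 3 cases by edgeR and 0 by DESeq2, with 0 at an unadjusted p under 0.05. Sod1, the copper-zinc enzyme of the cytosol, was at 38.9 and 44.1 CPM in Treg and 49.1, 45.8 and 63.7 CPM in reporter-null libraries (0.35, SE 0.171, adjusted p = 0.296). Sod2, the mitochondrial manganese enzyme, was at 113 and 104 CPM in Treg and 94.4, 93.8 and 91.1 CPM in reporter-null libraries (-0.22, SE 0.105, adjusted p = 0.282). In both genes the groups did not overlap. Cat, which encodes catalase, was at 109 and 118 CPM in Treg and 115, 97.1 and 88.1 CPM in reporter-null libraries (-0.18, SE 0.141, adjusted p = 0.531).

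Of the 4 genes Nfe2l2, Keap1, Hmox1 and Nqo1, 0 were called by edgeR, 2 had an unadjusted p under 0.05 and 1 was called by DESeq2. Nfe2l2, which encodes NRF2, was at 57.1 and 47.1 CPM in Treg and 64.9, 80.7 and 84.6 CPM in reporter-null libraries (0.56, SE 0.161, adjusted p = 0.0881). DESeq2 called Nfe2l2 (0.0202). Over 14 alternatives its adjusted p reached 0.353. Keap1, the adaptor that hands NRF2 to degradation, was at 67.8 and 66.9 CPM in Treg and 89.7, 84.0 and 75.4 CPM in reporter-null libraries (0.30, SE 0.12, adjusted p = 0.197). Both genes had all reporter-null libraries above both Treg libraries. Hmox1, the haem-degrading oxygenase, was at 14.2 and 19.7 CPM in Treg and 11.3, 11.3 and 13.5 CPM in reporter-null libraries (-0.50, SE 0.215, adjusted p = 0.236). Nqo1, a quinone reductase and classical NRF2 target, was at 2.82 and 1.39 CPM in Treg and 1.84, 14.8 and 1.96 CPM in reporter-null libraries (1.56, SE 1.137, adjusted p = 0.512). Its high value was in reporter-null replicate 2 alone, and without that library the difference was -0.16.

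The antioxidant response element core was looked for upstream of all members, since NRF2 acts through it. Of the 66 members with a RefSeq start, 13 (19.7%) held a match in the 250 bases upstream of a start, against 11.5% of 27025 genes. Windows around the match are shown for 4 of these 13, known for NRF2 control and shown because they held a match. Matches are in capitals as above. None of the called members, Gclc included, was among the 13, nor were Nqo1 and Hmox1. Members without a RefSeq start were not searched. Gclm is at chr3:122245407-122245447, Prdx1 at chr4:116685450-116685490 and Txnrd1 at chr10:82859098-82859138, all on the plus strand, and Nfe2l2 at chr2:75704873-75704913 on the minus strand. In Gclm a match to the metal element core overlaps that to the antioxidant core.
Gclm: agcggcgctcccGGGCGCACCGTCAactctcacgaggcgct
Prdx1: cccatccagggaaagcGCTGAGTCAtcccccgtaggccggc
Txnrd1: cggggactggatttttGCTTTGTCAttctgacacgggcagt
Nfe2l2: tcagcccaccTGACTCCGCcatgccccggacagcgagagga
The 4 genes were not called by edgeR, with log2 fold changes of 0.04 for Gclm, -0.20 for Prdx1, 0.14 for Txnrd1 and 0.56 for Nfe2l2.

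Many transferase genes were high in reporter-null replicate 2. Of the 64 tested members, 19 (29.7%) stood at least 2-fold above the mean of reporter-null replicates 1 and 3 in that library, against 9.44% of all tested genes. In 17 of the 19, Treg replicate 1 was also above Treg replicate 2, as in 1032 of the 1337 such genes among all tested genes. Mgst1, a microsomal transferase, was at 3.69 and 0.0925 CPM in Treg and 0.0542, 16.4 and 0.0445 CPM in reporter-null libraries. Gstm1, a transferase of the mu class, was at 6.68 and 3.38 CPM in Treg and 0.975, 34.9 and 1.25 CPM in reporter-null libraries. In Mgst1, Gstm1 and Gpx2 the 2 highest libraries were the 2 with the highest epithelial marker sums. These 2 also had the highest sums of fibroblast and smooth muscle markers. What part RNA of either kind had in these levels was not tested.

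**Figure D3:**
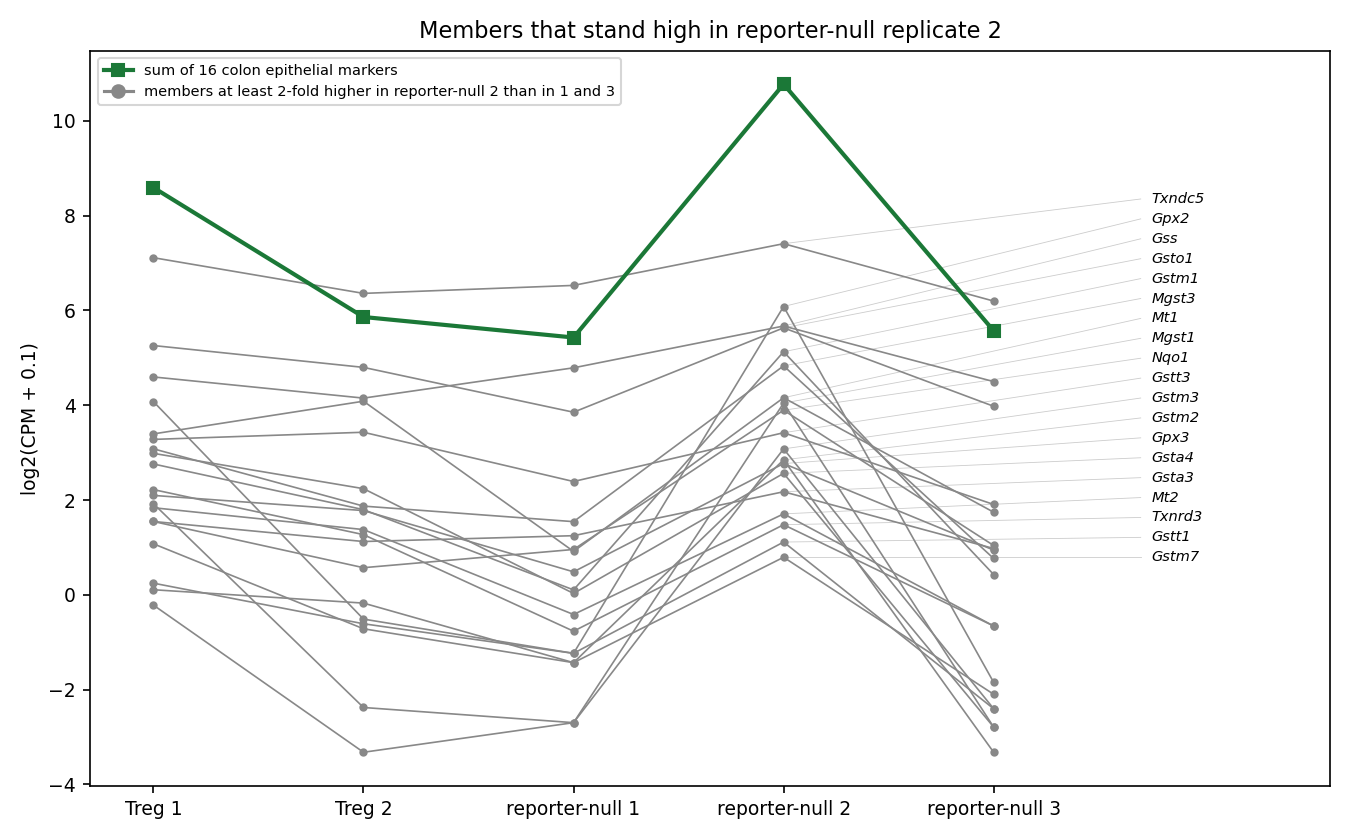
Log2(CPM + 0.1) (y axis) in the 5 libraries (x axis) of the 19 members at least 2-fold higher in reporter-null replicate 2 than in the mean of replicates 1 and 3 (grey), and of the sum of 16 colon epithelial markers (green), where lines only join values of the same gene. The green line peaks at 1753 CPM in reporter-null replicate 2, with its next value, 386 CPM, in Treg replicate 1.

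The mu class genes Gstm1 to Gstm7 lie next to each other on chromosome 3 and are similar in sequence, so reads may be shared among them, as between the neighbours Gstp1 and Gstp2. Gstm4 had no such peak, at 9.34 and 9.29 CPM in Treg and 6.66, 7.25 and 7.56 CPM in reporter-null libraries. Gstp1, a broadly expressed transferase, was also even, at 147 and 139 CPM in Treg and 138, 148 and 127 CPM in reporter-null libraries (-0.05, SE 0.115). Of the 16 tested transferases outside the microsomal family, edgeR called 0, DESeq2 called 1 and 1 had an unadjusted p under 0.05, with fitted differences from -1.46 for Gsta4 to 2.90 for Gstm3. Gstt2, of the theta class, stood at 32.8 and 25.3 CPM in Treg and 19.4, 17.1 and 20.7 CPM in reporter-null libraries (-0.61, SE 0.178, adjusted p = 0.0926), and DESeq2 called it (0.0342). Gsta1 had no count, and Gsta2, Gstm6, Gsto2 and Gstt4 were not tested, with 57, 46, 29 and 4 counts in all. The pseudogene Gpx2-ps1 had no count.

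Without reporter-null replicate 2, 13 of 62 tested members were called. The 6 calls above all held, and 7 more genes were lower. Lower calls then came to 11 of 62 (17.7%), against 8.16% of all genes tested that way, and higher calls to 2, with 6.81% of all genes. The 7 were Mt1, Mt2, Txnrd3, Gsta4, Gstm1, Gsto1 and Gstt3. All 7 are among the 19 genes high in the library left out. Without both it and Treg replicate 1, a setting chosen after seeing the data, the same 7 were called again, with 11 lower (8.52% of all genes) and 3 higher (6.66% of all genes), the added gene being Nfe2l2. That fit has a lone Treg library, which is assumed to vary like the reporter-null libraries, as in every fit that leaves out 1 Treg library. The 2 Treg libraries differed more (chi-square per degree of freedom 59.2) than reporter-null replicates 1 and 3 did (21.6). The adjusted p-values and calls of that fit rest on this assumption.

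Metallothioneins were among these genes. With all libraries, edgeR and DESeq2 each called 0 of 3, with 0 at an unadjusted p under 0.05. Mt1 and Mt2 encode small cysteine-rich proteins that bind zinc and copper and scavenge oxidants. Mt1 was at 10.4 and 16.9 CPM in Treg and 1.79, 17.8 and 3.25 CPM in reporter-null libraries. Mt2 was at 3.47 and 2.50 CPM in Treg and 0.65, 3.17 and 0.534 CPM in reporter-null libraries. In both, reporter-null replicates 1 and 3 were below every other library, and replicate 2 was within or above the Treg range. Over all libraries the log2 fold changes were -0.84 (SE 1.084, adjusted p = 0.736) for Mt1 and -1.04 (SE 0.833, adjusted p = 0.544) for Mt2. Without reporter-null replicate 2 they were -2.44 (adjusted p = 0.00112) and -2.34 (adjusted p = 0.0201). Without Treg replicate 1 as well they were -2.72 and -2.07, over a lone Treg library. Over the alternatives that kept both Treg libraries, the adjusted p ran from 0.00112 to 0.909 for Mt1 and from 0.0201 to 0.817 for Mt2. Mt3, best known from brain, differed by -1.11 (SE 1.009) at under 1 CPM in all libraries.

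A second measure moved with these libraries. The sum of 12 genes that respond to tissue dissociation was 16617 CPM in Treg replicate 1 and 25775 CPM in reporter-null replicate 2. It was 49987 to 58298 CPM in the other 3 libraries. Hspa1b was at 2423 and 18692 CPM in Treg and 19197, 3581 and 15418 CPM in reporter-null libraries, and Hspa1a had the same pattern. The list was not uniform, as Junb, Ier2 and Fosb were highest in reporter-null replicate 2 (9313, 1044 and 915 CPM). Metallothionein genes respond to stress as well, and the part of handling in their levels was not tested. Among the 3 libraries with high sums, Mt1 was at 16.9 CPM in Treg replicate 2 and at 1.79 and 3.25 CPM in reporter-null replicates 1 and 3. That difference rests on 1 Treg library, and its cause was not tested.

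Mt1 and Mt2 are neighbours on chromosome 8 and were both called lower without reporter-null replicate 2, so the 250 bases upstream of each start are shown, on the plus strand of GRCm38.p6 from RefSeq. Mt1 is at chr8:94178839-94179088 and Mt2 at chr8:94172368-94172617. Capitals mark the metal response element cores and, in Mt2, 1 antioxidant response element core.
Mt1: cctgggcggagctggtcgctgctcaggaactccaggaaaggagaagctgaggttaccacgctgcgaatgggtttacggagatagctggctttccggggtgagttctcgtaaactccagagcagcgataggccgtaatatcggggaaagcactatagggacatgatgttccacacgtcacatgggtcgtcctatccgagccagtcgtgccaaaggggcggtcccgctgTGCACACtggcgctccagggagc
Mt2: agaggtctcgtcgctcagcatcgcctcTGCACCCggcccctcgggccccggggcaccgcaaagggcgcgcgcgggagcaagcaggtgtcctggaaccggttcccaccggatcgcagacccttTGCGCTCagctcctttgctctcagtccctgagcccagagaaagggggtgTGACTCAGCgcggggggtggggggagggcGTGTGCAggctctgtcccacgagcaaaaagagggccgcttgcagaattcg
Mt2 held 3 matches to the metal element core, and 1.46% of all genes held at least 3. In its window Mt1 held 1, and 23.8% of all genes held at least 1. Only the 250 bases before these RefSeq starts were searched, so elements elsewhere near either gene were not counted. Of the 66 members with a RefSeq start, 17 (25.8%) held at least 1.

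The other 5 genes called only without reporter-null replicate 2 had lower levels in reporter-null replicates 1 and 3. Gsto1, a transferase of the omega class that also reduces mixed disulfides, was at 38.2 and 27.7 CPM in Treg and 14.4, 49.5 and 15.7 CPM in reporter-null libraries. Its log2 fold change without the library was -1.15 (SE 0.213, adjusted p = 0.00379). Gsta4, which clears the lipid peroxidation product hydroxynonenal, was at 7.82 and 4.62 CPM in Treg and 0.921, 5.81 and 0.0445 CPM in reporter-null libraries, and the value without the library was -3.74 (SE 0.966, adjusted p = 0.048). Gstt3 gave -1.22 (adjusted p = 0.0224), Txnrd3 -2.74 (adjusted p = 0.0108) and Gstm1 -2.18 (adjusted p = 0.0139). Over the alternatives that kept both Treg libraries, the adjusted p ran from 0.00379 to 0.994 for Gsto1 and from 0.048 to 0.877 for Gsta4. It ran from 0.0224 to 0.761 for Gstt3 and from 0.0139 to 0.972 for Gstm1. For Txnrd3 it reached 0.78 over 14 alternatives. Gstm1 was 1.30 higher with all libraries, so its direction changed with this 1 library, and it was also -0.37 by limma-voom.

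**Figure D4:**
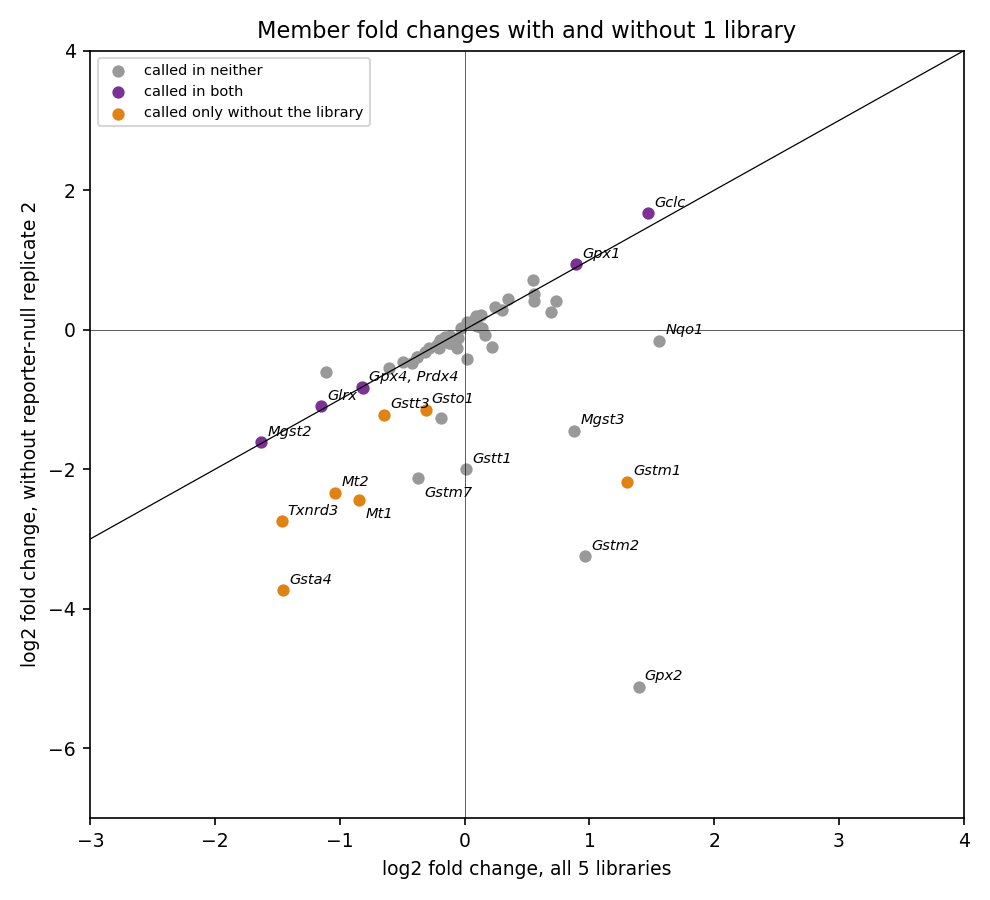
Log2 fold change, reporter-null minus Treg, with all 5 libraries (x axis) and without reporter-null replicate 2 (y axis), for the members tested in both, with the line of equal values. The 6 genes called in both (purple) lie on or near the line, while the 7 called only without the library (orange) lie below it, the lowest of them Gsta4 at -3.74. Gpx2, at -5.12, is not called in either.

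The surrounding pathway was read from 8 lists of related genes that hold 145 tested genes. Of these, 9 were higher (6.21%) and 8 lower (5.52%), near the 4.07% and 4.72% of all tested genes, with a median of 0.07, beside 0.02 over all genes. The shares of single lists below stand against the same 4.07% and 4.72%. Cystine uptake and cysteine supply (12 tested) and NADPH supply (17 tested) had 0 genes called by edgeR, with 2 and 1 at an unadjusted p under 0.05. DESeq2 called 2 in the first list and 0 in the second. Slc7a11, the cystine carrier, differed by -0.14 (SE 0.436), and G6pdx, the first enzyme of the pentose phosphate route to NADPH, by 0.23 (SE 0.152).

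Genes for the breakdown and export of glutathione conjugates were called in 3 of 13 cases, all higher (23.1%). Ggt5 encodes a gamma-glutamyl transferase that converts leukotriene C4 to D4. Treg replicate 1 had 3 counts and replicate 2 had 0, against 605 counts over the reporter-null libraries. Relative to depth this is a ratio of 131, whose 95% interval of 44.5 to 636 covers counting error only. Its CPM was 11.8, 8.21 and 9.61 in reporter-null libraries, and the call (adjusted p = 0.00967) held without any 1 library. Dpep2, a dipeptidase that takes leukotriene D4 further, was at 1.03 and 0.879 CPM in Treg and 3.74, 4.85 and 4.05 CPM in reporter-null libraries (2.13, SE 0.428, adjusted p = 0.0283). Abcc5, an export pump for organic anions, was at 20.4 and 23.6 CPM in Treg and 42.6, 50.1 and 35.1 CPM in reporter-null libraries (0.95, SE 0.188, adjusted p = 0.0268). Among the fits that left out 1 library, the call of Dpep2 held only without reporter-null replicate 2. That of Abcc5 was lost without Treg replicate 1, Treg replicate 2 or reporter-null replicate 1 (0.112 to 0.199).

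Among 29 tested partners, regulators and targets of NRF2, 1 was higher (3.45%) and 3 lower (10.3%). Ephx1, the microsomal epoxide hydrolase, was at 189 and 203 CPM in Treg and 39.6 to 46.5 CPM in reporter-null libraries. It fell (-2.22, SE 0.121, adjusted p = 0.000352), and the call held without any 1 library. Fth1, the ferritin heavy chain that stores iron, was at 2179 and 1666 CPM in Treg and 1162, 1277 and 1114 CPM in reporter-null libraries (-0.70, SE 0.157, adjusted p = 0.0413). Bach2, a repressor that shares binding partners with NRF2 and restrains effector T cells, differed by -0.62 (SE 0.119, adjusted p = 0.0241). Nfe2l1, which encodes the NRF2 relative NRF1, was higher by 0.91 (SE 0.209, adjusted p = 0.044). Calls were lost without Treg replicate 1, Treg replicate 2 or reporter-null replicate 1 for Bach2 (0.123 to 0.153) and Nfe2l1 (0.0844 to 0.276), and for Fth1 also without reporter-null replicate 3 (0.0775 to 0.292).

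Repair of oxidised protein had 1 higher (5.26%) and 3 lower (15.8%) of 19 tested. Msrb3 and Msrb2 encode reductases of methionine sulfoxide. Msrb3 was at 19.3 and 31.4 CPM in Treg and 3.52, 3.22 and 2.67 CPM in reporter-null libraries (-3.01, SE 0.274, adjusted p = 0.00152), and the call held without any 1 library. Msrb2 fell from 9.90 ± 3.33 (SD, n = 2) to 2.49 ± 0.866 CPM (SD, n = 3), by -1.99 on the log2 scale (adjusted p = 0.0333). Sesn1, a stress-induced sestrin, differed by -0.99 (adjusted p = 0.0177) and the sulfhydryl oxidase gene Qsox2 by 0.92 (adjusted p = 0.0271). Calls were lost without Treg replicate 2 or reporter-null replicate 1 for Sesn1 (0.0829 to 0.0839). They were lost without either Treg library or reporter-null replicate 1 for Qsox2 (0.122 to 0.167), and for Msrb2 also without reporter-null replicate 3 (0.0654 to 0.229). The value of Sesn1 was -0.66 without Treg replicate 2.

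Metal handling gave 2 higher (8.7%) and 1 lower (4.35%) of 23 tested. Slc39a14 and Slc39a8 encode importers of zinc, manganese and iron. Slc39a14 was at 17.5 and 18.6 CPM in Treg and 49.2, 44.8 and 42.4 CPM in reporter-null libraries (1.33, SE 0.14, adjusted p = 0.00268), and the call held without any 1 library. Slc39a8 was at 5.05 and 9.06 CPM in Treg and 21.2, 30.9 and 28.4 CPM in reporter-null libraries (1.92, SE 0.31, adjusted p = 0.0129). Without Treg replicate 1 the call was lost (0.0758). Ccs, the chaperone that delivers copper to SOD1, was at 72.4 and 65.7 CPM in Treg and 29.8, 27.1 and 29.0 CPM in reporter-null libraries (-1.27, SE 0.115, adjusted p = 0.00152). That call held without any 1 library, beside the uncalled 0.35 of Sod1 itself. Mtf1, the zinc sensor that drives metallothionein genes, differed by 0.11 (SE 0.112).

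Of 13 tested genes for superoxide and peroxide production, 1 was lower (7.69%). Cybb, the catalytic chain of the phagocyte NADPH oxidase, was at about 22 CPM in each Treg library and 3.52, 7.49 and 2.80 CPM in reporter-null libraries (-2.25, SE 0.422, adjusted p = 0.0256). The call was lost without Treg replicate 1, Treg replicate 2 or reporter-null replicate 1 (0.111 to 0.156). Its partner Cyba differed by -0.32 (SE 0.113, adjusted p = 0.148). The summed level of 12 macrophage and monocyte markers was 618 to 677 CPM in Treg and 570.5 to 823 CPM in reporter-null libraries, mostly from Ccr2, and 10 of the 12 were highest in reporter-null replicate 2. Csf1r was at 3.26 and 0.0925 CPM in Treg and 1.79, 10.8 and 2.00 CPM in reporter-null libraries. Cd68 was at 8.80 and 3.84 CPM in Treg and 1.35, 2.78 and 3.11 CPM in reporter-null libraries, lower in each of the latter as Cybb was (-1.38, adjusted p = 0.179). Of the B cell markers, Cd79b was at 20.4 and 19.2 CPM in Treg and 7.42, 7.10 and 6.81 CPM in reporter-null libraries (-1.47, adjusted p = 0.0046). These marker genes were picked after their values were seen, and the part of such cells in Cybb was not tested.

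Selenoproteins and their synthesis had 2 of 19 tested genes higher (10.5%). Selm and Sepn1, both of the endoplasmic reticulum, differed by 1.23 (SE 0.229, adjusted p = 0.0214) and 1.03 (SE 0.241, adjusted p = 0.0458). Selm lost its call without Treg replicate 2 or reporter-null replicate 1 (0.0865 to 0.0883), and Sepn1 without any library but reporter-null replicate 2 (0.0859 to 0.257). Of the selenoenzymes among the peroxidases above, Gpx1 was higher and Gpx4 lower.

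**Figure D5:**
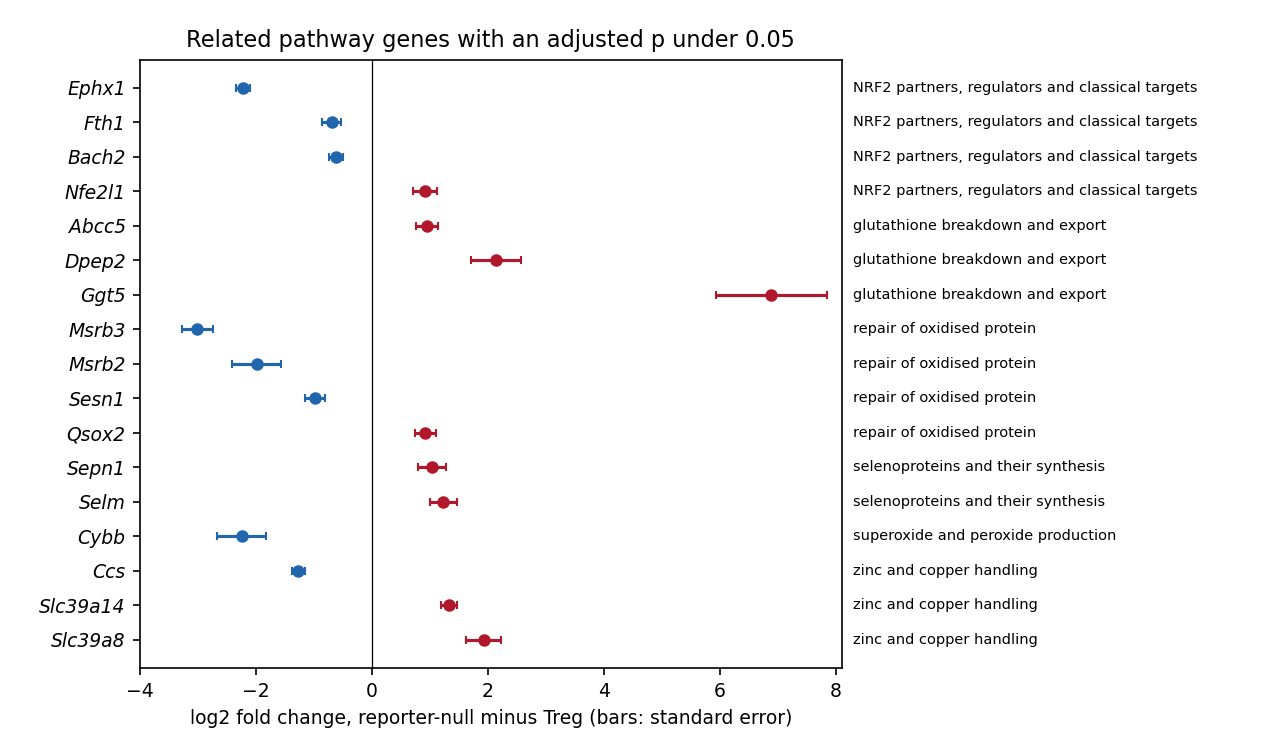
Log2 fold change, reporter-null minus Treg (x axis, bars for the SE), of the 17 called genes of the 8 pathway lists, with red for higher and blue for lower and the list named at the right. Ggt5 has the largest increase, over a Treg group with 3 counts, and Msrb3 the largest decrease at -3.01.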

How the data were processed

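The authors deposited raw counts for each gene symbol, made from polyadenylated RNA that was amplified with SMART-Seq v4, per the labels' protocols. The submitters' processing notes list DESeq. For the aligner, build, annotation and strand setting, the entry is not given in the sources used here, and overlapping, antisense and near-identical genes cannot be told apart. Reads carry no molecular identifiers. Of 24421 rows, 4 named NA were left out (0.0034% to 0.00492% of a library).

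Genes were filtered in R 4.3.3 with filterByExpr (minimum count 10, minimum total 15), scaled with TMM factors and tested with the robust quasi-likelihood F test of edgeR 4.0.16, with Benjamini-Hochberg adjustment over all 14164 genes and a threshold of 0.05. The SE is the log2 fold change over the square root of F. The steps were run on simulated counts with planted changes, drawn for each gene on its own. Those counts held no libraries rich in RNA of other cells, and the outcome is not reported here. Replicates differed beyond sampling noise (chi-square per degree of freedom 21.6 to 92.2). Tried in turn were upper quartile and RLE factors, limma-voom (limma 3.58.1), DESeq2 1.42.0, no filter, a CPM of 1 in at least 2 libraries, each library left out and 2 replicate blocks. Leaving out both Treg replicate 1 and reporter-null replicate 2 was added after seeing the data.

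Values per library are given for called members, 20 fixed members and the 6 largest uncalled differences (mean log2 CPM 1 or more), and for up to 4 called genes of a pathway list. Others are named to complete a group. Members and lists were chosen with earlier results of these data known. Promoters are from RefSeq (GRCm38.p6), with those of chromosome 18 left out, and 66 of 76 members matched. Intervals cover counting error only. Members held 0.52% to 0.58% of the counts.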

Additional observations from a re-analysis of the deposited data

How the results depend on the processing

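RLE and upper quartile factors, limma-voom and both other filters left the same 2 higher and 4 lower members called. DESeq2 called 4 higher members (Nfe2l2 and Prdx6 added) and 6 lower (Gstt2 and Txnip added), and among all genes 1200 higher and 1123 lower genes against 577 and 668, and 15 higher and 13 lower pathway genes against 9 and 8. Leaving out 1 library gave 146 to 926 higher and 192 to 1109 lower genes, 0 to 2 higher and 2 to 11 lower members, and 3 to 11 higher and 3 to 15 lower pathway genes. Leaving out Treg replicate 1 together with reporter-null replicate 2 gave 944 higher and 1208 lower genes and 11 lower members. The labels do not say what the replicate numbers share. A replicate block by the title numbers, with 1 residual degree of freedom, left 12 higher and 12 lower genes, 0 members by edgeR (9 at an unadjusted p under 0.05, where DESeq2 without a block called 10) and 0 pathway genes in each direction. A replicate block by the numbers in the descriptions, also with 1 residual degree of freedom, gave 4 higher members, Gclc, Gpx1, Nfe2l2 and Gstm3. Gstm3 was at 0.760 and 0 CPM in Treg and 0.0542, 8.35 and 0.0890 CPM in reporter-null libraries. Its high value was in reporter-null replicate 2 alone. Deviations from the group means correlated at -0.51 and -0.60 for libraries that share a title number. They correlated at 0.60 and 0.48 for those that share a description number. Deviations of 2 Treg libraries from their mean mirror each other, so each reporter-null library gives 1 value with either sign. The -0.60 and 0.60 are thus the same value, and these correlations cannot serve as separate results for either pairing.

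Among the called members, the 20 fixed members and the 6 largest uncalled differences, Gclm, Gpx2, Gsr, Gstm1, Nqo1, Txnrd1 and Mgst1 changed sign in at least 1 alternative. Over the fits that left out libraries, log2 fold changes ran from -0.042 to 0.19 for Gclm, -5.12 to 5.23 for Gpx2, -0.072 to 0.28 for Gsr, -2.18 to 1.87 for Gstm1, -0.16 to 2.15 for Nqo1 and -0.024 to 0.21 for Txnrd1. With the title block Gclm was at -0.028. Limma-voom gave -0.76 for Gpx2, -0.37 for Gstm1 and -0.37 for Mgst1. The causes were not tested. With 2 Treg libraries, a common biological coefficient of variation of 0.401 limits what small differences can be called.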
